A study of Mus musculus with 12 samples.

Results

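In sorted small pre-B cells of the mouse, 478 places in the genome carried a peak of doubly modified histone H3 (H3S10pK14Ac: serine 10 phosphorylated, lysine 14 acetylated) on top of a peak of H3K9Ac (lysine 9 acetylated), but no peak of the histone reader BRWD1. They are called here doubly marked sites without BRWD1. The sites were chosen by overlap of at least 1 bp between deposited peak lists: each is a peak of the second H3S10pK14Ac library, on chromosomes 1 to 19 or X, that overlaps an H3K9Ac peak of either replicate and no BRWD1 peak of either replicate. Of the 10637 peaks of that library, 830 (7.80%) overlapped H3K9Ac and 10057 (94.5%) overlapped no BRWD1 peak. The 478 sites met both conditions and made up 4.49% of the list. The remaining 352 doubly marked sites carried BRWD1 and serve as the contrast. Presence in these 5 lists defined the classes, so the class sizes are descriptions and support nothing.

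The material was chromatin immunoprecipitation followed by sequencing (ChIP-seq) for H3S10pK14Ac, H3K9Ac and BRWD1, with 2 biological replicates per target and a peak list for each. On the chromosomes used, the first and second replicates listed 5813 and 9964 BRWD1 peaks, 10117 and 16453 H3K9Ac peaks, and 102 and 10637 H3S10pK14Ac peaks, so the first H3S10pK14Ac list stands apart. The cells were lineage-negative, B220-positive, CD43-negative, IgM-negative and small by light scatter. They came from bone marrow of mice labelled with a C57BL/6 background. The labels of these samples give neither a genotype nor an age, the protocol for the series names wild-type and Brwd1-Mut mice, and the peak lists hold no expression values against which the cell type could be checked. The input and ATAC-seq samples of the series are not analysed here.

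H3K9Ac is deposited by histone acetyltransferases at active promoters and enhancers. Phosphorylation of serine 10 next to an acetylated lysine 14 is placed by kinases that act downstream of growth factor and stress signals, and it accompanies rapid induction of genes; outside such responses, serine 10 is phosphorylated during mitosis. BRWD1 carries bromodomains, which bind acetylated lysines, and WD repeats. In the small pre-B cell, the stage at which the kappa light chain locus Igk rearranges, a site with both marks and no BRWD1 peak is therefore one where the histone modifications and the reader's peak lists part.

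Without BRWD1 in either list were 57.6% of the 830 doubly marked sites (95% Wilson interval 54.2 to 60.9). The share rested on the second H3K9Ac list: without it, 164 of the remaining sites lacked BRWD1, or 39.7%. At H3S10pK14Ac scores of 10 or more it was 10.4% (6.41 to 16.5). Taken alone, the first BRWD1 list left 72.3% without a peak and the second 58.6%. The second list did most of the separating: of the 352 sites with BRWD1, 222 had a peak in both BRWD1 lists, 122 in the second alone and 8 in the first alone. The second BRWD1 list was longer, and its peaks were wider, with a median of 196 bp against 71 bp in the first. It also shares its replicate number with the H3S10pK14Ac list that supplied the sites. Whether any of these bears on the separation was not tested. Among the 9807 H3S10pK14Ac peaks with no H3K9Ac, 97.7% (97.4 to 98.0) lacked BRWD1. These intervals cover the counting error of peaks alone. No p-value is given anywhere, because peaks of a library are not replicates of a condition and 2 lists per antibody leave no exact test over samples that could pass a threshold. The cells behind the 2 replicates are separate samples per the labels, and only 1 H3S10pK14Ac library supplied the sites.

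The edge of the class was sharp in base pairs. The sites closest to BRWD1 lay 41 bp (chromosome 8, 124954050 to 124954238, score 6.19), 74 bp (chromosome 2, 169835904 to 169836183, score 7.95) and 120 bp (chromosome 17, 13745430 to 13745649, score 7.24) from the nearest BRWD1 peak. On the other side of the rule, the 3 smallest overlaps with BRWD1 were 8, 38 and 53 bp, at sites that each scored 5.56. The median overlap in the class with BRWD1 was 231 bp (quartiles 162.5 and 257), close to a whole peak.

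Sites without BRWD1 had weaker H3S10pK14Ac peaks than sites with it. The deposited score, −log10 of a peak's significance as the authors computed it, was compared here within a single list. It ranged from 5.02 to 15.4 at the 478 sites, with a median of 5.91 (quartiles 5.56 and 6.91), and from 5.11 to 70.6 at the 352 sites with BRWD1, with a median of 8.06 (6.04 and 11.9). The medians differed by −2.15 on the score scale. In percentiles of the list the medians were 67.1 and 95. The classes overlapped over the whole range up to 15.4, and above it lay 52 sites with BRWD1. H3S10pK14Ac peaks with neither H3K9Ac nor BRWD1 were weaker still, with a median of 5.56 and a highest score of 13.1. Scores of 10 or more were reached by 15 of the 478 sites (3.14%, 1.91 to 5.11), by 129 of the 352 with BRWD1 (36.6%, 31.8 to 41.8) and by 54 of the 9579 with neither mark nor reader (0.564%, 0.432 to 0.735). The median score was lower without BRWD1 on each of the 20 chromosomes.

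Many scores were tied. The commonest value of the list, 5.56, was shared by 20.1% of the sites without BRWD1, 12.5% of those with it and 46.1% of the peaks with neither.

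**Figure D1:**
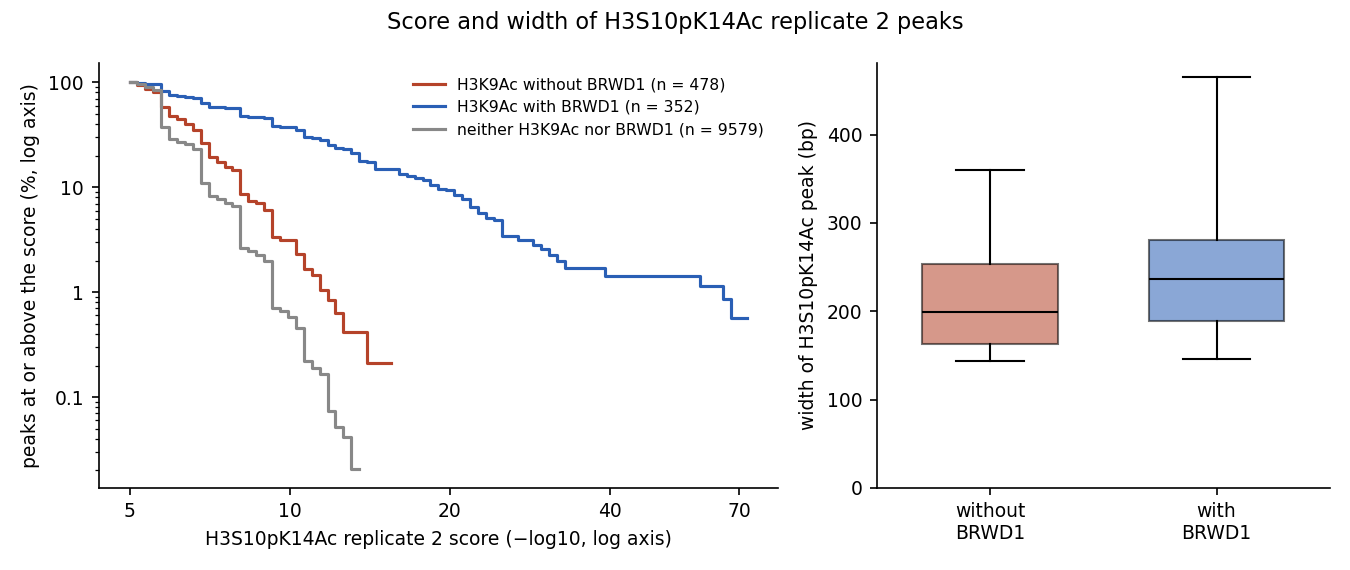
Left, percentage of H3S10pK14Ac replicate 2 peaks at or above each score (both axes logarithmic) for doubly marked sites without BRWD1 (red), doubly marked sites with BRWD1 (blue) and peaks with neither H3K9Ac nor BRWD1 (grey); right, peak width in bp, with boxes from the first to the third quartile, a line at the median and whiskers from the 5th to the 95th percentile. The red curve ends at 15.4, between the grey curve and the blue one, and the median widths are 199.5 and 236 bp.

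Read the other way, the share of doubly marked sites that lacked BRWD1 was lower at each step up in the H3S10pK14Ac score. It was 74.6% of 338 sites scored from 5 to 6, 68.9% of 193 scored from 6 to 7 and 60.3% of 73 scored from 7 to 8. It then dropped to 41.5% of 82 sites scored from 8 to 10, 15.6% of 90 scored from 10 to 15, and 1.85% of 54 scored 15 or more (0.328 to 9.77), where a single site had no BRWD1. Much of the upper end consisted of places with a peak in every larger list. In all, 147 regions held a peak of both BRWD1 lists, both H3K9Ac lists and the second H3S10pK14Ac list; by construction they contain sites with BRWD1, 156 of the 352, and a single site without it. Outside these regions the share without BRWD1 was 79.0% at scores from 5 to 6 (74.2 to 83.1), 54.1% from 8 to 10 (41.7 to 66.0) and 29.8% from 10 to 15 (18.7 to 44.0). The median score of sites with BRWD1 was 6.70 there, which left a difference of −0.79 in place of −2.15.

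The peaks without BRWD1 were also somewhat narrower, with a median of 199.5 bp (quartiles 163 and 254) against 236 bp (189 and 280.5). A wider peak has more chance to meet another, so width and the overlap rule are tied by construction. Among peaks under 150 bp the median scores of both classes were 5.56, whereas from 200 up to 300 bp they were 6.04 without BRWD1 (166 sites) and 9.13 with it (180 sites), and at 300 bp or more 6.47 and 10.9 (73 sites each). The score difference thus appeared among the wider peaks and was absent among the narrowest, where 62 of 88 sites had no BRWD1.

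The H3K9Ac peak under a site without BRWD1 usually came from the second H3K9Ac library alone. Of the 478 sites, 127 had H3K9Ac in both lists (26.6%, 22.8 to 30.7), 314 in the second list alone (65.7%, 61.3 to 69.8) and 37 in the first alone (7.74%, 5.67 to 10.5). Of the 352 sites with BRWD1, 205 had both (58.2%, 53.0 to 63.3), 103 the second alone and 44 the first alone. Most sites of both classes thus rested on lists of the same replicate number. The second H3K9Ac list lay over 92.3% of the sites without BRWD1 and the first over 34.3%, against 87.5% and 70.7% with BRWD1. Whether same-numbered libraries share a source, and whether that or the greater length of the second list bears on this, was not tested. Put as shares of each kind of support, 38.3% of the 332 sites with H3K9Ac in both lists lacked BRWD1 (33.2 to 43.6), 45.7% of the 81 with the first alone (35.3 to 56.5), and 75.3% of the 417 with the second alone (70.9 to 79.2). Outside the 147 regions 51 of 196 sites with BRWD1 had both (26.0%, 20.4 to 32.6). These regions hold both H3K9Ac lists and both BRWD1 lists by construction, so setting them aside lowers that share by rule. The lower share therefore cannot show where the difference in support arose.

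The H3S10pK14Ac score went with the lack of BRWD1 within each kind of H3K9Ac support. With H3K9Ac in both lists, 61.6% of 164 sites scored from 5 to 7 lacked BRWD1, 34.8% of 69 scored from 7 to 10, and 2 of 99 scored 10 or more (2.02%, 0.556 to 7.07). With H3K9Ac in the second list alone the shares were 83.3% of 300, 67.1% of 76 and 31.7% of 41 (19.6 to 47.0). With H3K9Ac in the first list alone they were 50.7% of 67 (39.1 to 62.3), 30% of 10 (10.8 to 60.3) and 0 of 4 (0 to 49.0). These lay below the shares with both lists, but the intervals overlapped in each band. Higher shares were thus seen with the second list alone, and whether single-list support in general bears on them was not tested. At scores of 10 or more, 13 of the 15 sites without BRWD1 rested on the second H3K9Ac list alone.

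**Figure D2:**
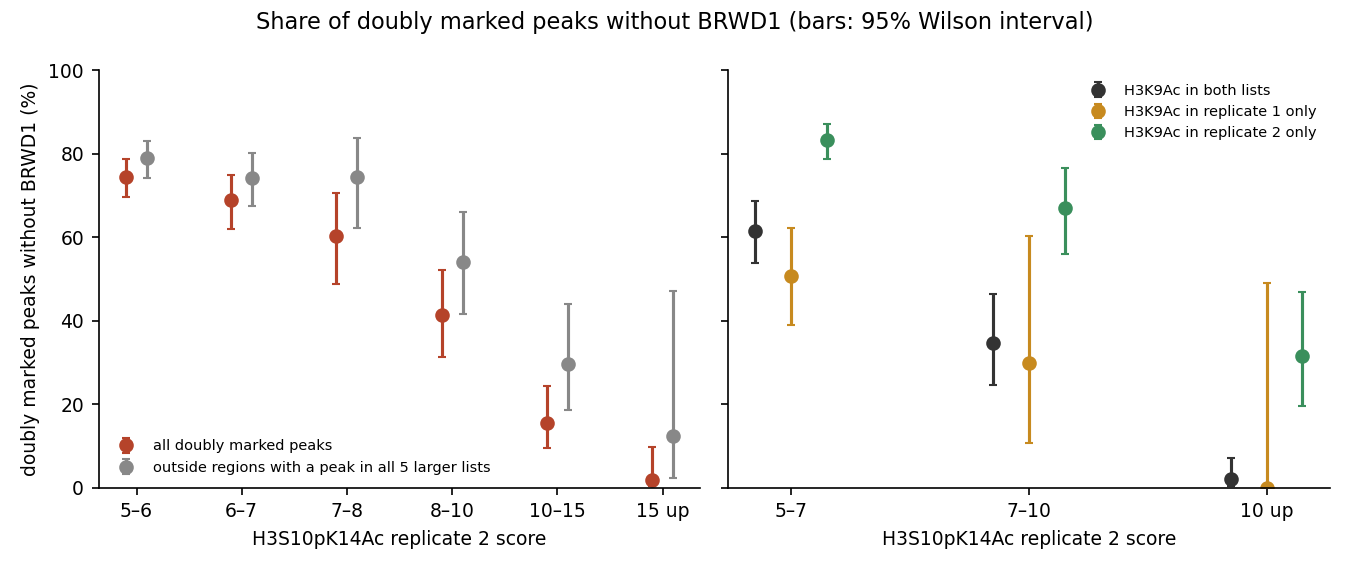
Percentage of doubly marked sites without BRWD1 by H3S10pK14Ac replicate 2 score, with 95% Wilson intervals as bars; left, all sites (red) and those outside the 147 regions that every one of the 5 larger lists marks (grey), right, by the H3K9Ac lists that supply the overlap. The red points fall from 74.6% to 1.85%, and sites with H3K9Ac in replicate 2 only stay above those with H3K9Ac in both lists. The grey points are higher in every band, which follows from leaving out regions that hold BRWD1 by construction.

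The H3K9Ac peaks over sites without BRWD1 had higher median scores than the whole lists and, over all sites, lower ones than those over sites with BRWD1. In the first H3K9Ac library the median score was 9.12 over 164 sites without BRWD1, 13.3 over 249 sites with it and 6.98 in the whole list. In the second library the medians were 7.09 over 441 sites, 9.62 over 308 sites and 6.25 in the whole list. H3K9Ac peaks scored 10 or more lay over 47.0% (39.5 to 54.6) and 27.0% (23.1 to 31.3) of the sites without BRWD1 that had a peak in the first and second list, against 65.5% (59.4 to 71.1) and 46.8% (41.3 to 52.3) with BRWD1. Outside the 147 regions the medians with BRWD1 were 11.1 in the first library (95 sites) and 8.82 in the second (152 sites), still above those without it. Among sites with H3K9Ac in both lists the order held in the first library, at 11.2 without BRWD1 (127 sites) and 14.8 with it (205 sites), and turned in the second, at 14.4 and 12.3.

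Width showed another order. First-library H3K9Ac peaks had a median width of 517 bp over sites without BRWD1 (quartiles 354 and 801) and 379 bp over sites with it (367 and 512), where the whole list had 375 bp. Peaks of 1 kb or more lay over 27 of 164 sites without BRWD1 (16.5%) and 18 of 249 with it (7.23%), and made up 4.69% of the list. Outside the 147 regions the median width with BRWD1 was 387 bp. At the 68 sites with a first-library H3K9Ac peak and BRWD1 in a single list it was 580.5 bp, so the order turned. In the second library the medians were nearly the same, 257 and 254.5 bp. Among sites with H3K9Ac in both lists the domain was wider without BRWD1 in each library, at 541 against 383 bp and 416 against 264 bp, while the H3S10pK14Ac peak inside it was narrower, at 186 against 238 bp.

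**Figure D3:**
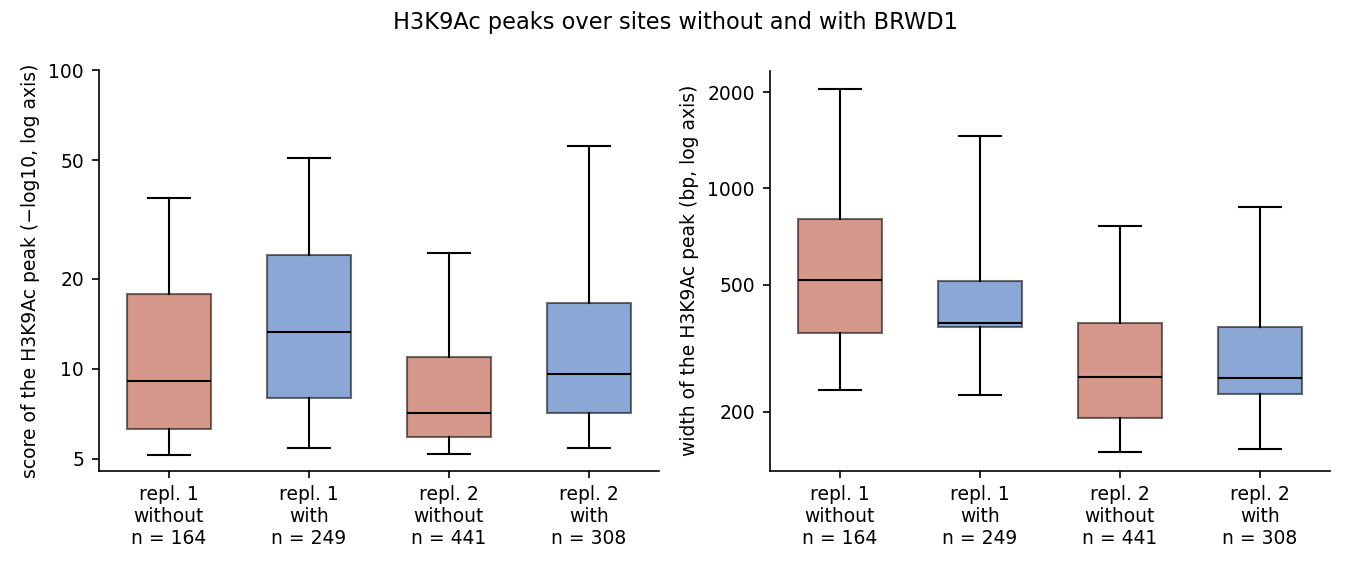
Score (left) and width in bp (right) of the best-scored H3K9Ac peak over each doubly marked site, on logarithmic axes, for replicates 1 and 2 and for sites without (red) and with (blue) BRWD1; boxes run from the first to the third quartile with a line at the median, and whiskers from the 5th to the 95th percentile. Scores are lower without BRWD1 in both replicates, with medians of 9.12 against 13.3 and 7.09 against 9.62, whereas replicate 1 widths are larger, 517 against 379 bp.

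Over all sites the outlines of the 2 marks were less alike without BRWD1. With both the 147 regions and single-list H3K9Ac set aside they were not, but that contrast held only sites with BRWD1 in a single list. The length shared by the H3S10pK14Ac peak and the second-library H3K9Ac peak was a median of 52.1% of their joint length at sites without BRWD1 and 71.1% at sites with it. Outlines that shared 80% or more were found at 50 of 441 sites (11.3%, 8.71 to 14.6) and 121 of 308 sites (39.3%, 34.0 to 44.8). With the first H3K9Ac library the medians were 28.7% and 57.5%. Outside the 147 regions the sites with BRWD1 shared 40.5% with the first library and 63.6% with the second, and outlines shared to 80% or more were found at 27.6% of them in the second. Of these, the 51 with H3K9Ac in both lists shared 25.7% with the first library and 41.4% with the second, against 28.9% and 41.6% at the 127 such sites without BRWD1. Sites with both H3K9Ac lists and both BRWD1 lists fall inside the regions by construction, so these 51 had BRWD1 in a single list. Their shared lengths therefore cannot stand for all sites with BRWD1. Centres of the 2 peaks lay a median of 52 bp apart without BRWD1 and 31.75 bp apart with it in the second library, and 134 and 33.5 bp apart in the first. An H3S10pK14Ac peak lay wholly inside H3K9Ac at 198 of the 478 sites (41.4%, 37.1 to 45.9), against 241 of 352 (68.5%, 63.4 to 73.1).

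Splitting the sites with BRWD1 by how many BRWD1 lists had a peak showed that the close outlines belonged to the sites found in both. Sites with BRWD1 in a single list (130) had shared lengths of 28.4% and 56.1% with the first and second H3K9Ac library. These were near the 28.7% and 52.1% without BRWD1. Their median H3K9Ac widths exceeded those without BRWD1, at 580.5 against 517 bp in the first library and 286.5 against 257 bp in the second. Sites with BRWD1 in both lists (222) had shared lengths of 61.8% and 81.5%, and widths of 375 and 249 bp. The H3S10pK14Ac score was higher at each of the same steps, with medians of 5.91, 6.70 and 9.19 for 0, 1 and 2 BRWD1 lists, and so was the share with H3K9Ac in both lists, at 26.6%, 44.6% (36.3 to 53.2) and 66.2% (59.8 to 72.1).

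None of the 478 sites was found again in the other H3S10pK14Ac library, which the rule did not use. Across the whole second list, 32 peaks (0.301%) overlapped one of the 102 peaks of the first library, and all 32 were doubly marked sites with BRWD1, 31 of them with BRWD1 in both lists. That is 9.09% of the 352 sites with BRWD1 (6.51 to 12.6) and 0 of the 478 without it, which allows a share of up to 0.628% if 3 sites are taken as the limit of a count of 0 (95% Wilson upper bound 0.797%). Among sites scored under 10 the overlaps were 10 of 223 with BRWD1 and 0 of 463 without. Among those scored 10 or more they were 22 of 129 and 0 of 15, where 0 allows up to 20%. Outside the 147 regions, 2 of 196 sites with BRWD1 had a first-library peak (1.02%, 0.280 to 3.64). Setting the regions aside removes, by rule, every site with both BRWD1 lists and both H3K9Ac lists. The lower share therefore cannot show where the difference lay. The first library listed 102 peaks against 10637, and most sites could not have been met by it. One site without BRWD1 lay within 10 kb of a first-library peak, 638 bp from it.

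Most sites without BRWD1 were more than 10 kb away from any BRWD1 peak. The distance to the nearest BRWD1 peak of either list ranged from 41 to 516315 bp, with a median of 42566.5 bp (quartiles 16019 and 92099 bp). Within 1 kb lay 22 sites (4.60%, 3.06 to 6.87), within 10 kb 83 (17.4%, 14.2 to 21.0) and within 100 kb 374 (78.2%, 74.3 to 81.7). Over all 10057 H3S10pK14Ac peaks without BRWD1 the share within 10 kb was 13.7%. Among those with neither H3K9Ac nor BRWD1 it was 13.5% (12.8 to 14.2), and 1.32% lay within 1 kb (1.11 to 1.56). H3K9Ac peaks with neither H3S10pK14Ac nor BRWD1 had 19.4% and 17.9% within 10 kb in the first and second list, and 5.14% and 4.30% within 1 kb. The sites thus had shares near those of other H3K9Ac peaks at both distances. Against H3S10pK14Ac peaks alone, a larger share of them lay within 1 kb.

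Closeness to BRWD1 went with support for H3K9Ac. Of the 127 sites with H3K9Ac in both lists, 13 lay within 1 kb of BRWD1 (10.2%, 6.08 to 16.7) and 31 within 10 kb (24.4%, 17.8 to 32.6). Of the 351 with a single H3K9Ac list, 9 (2.56%, 1.35 to 4.80) and 52 (14.8%, 11.5 to 18.9) did. The H3S10pK14Ac score itself hardly moved with distance: the median was 6.19 within 1 kb, 6.02 from 1 to 10 kb, 5.87 from 10 to 100 kb and 5.92 beyond. The nearby BRWD1 peaks mostly scored low, but so did the BRWD1 lists as a whole. Within 1 kb their median score was 6.37, against 5.47 and 5.70 in the whole first and second lists. A single one of 22 scored 10 or more, where the lists had 7.71% and 3.95%. Of the 22, 20 came from the second BRWD1 list. Strong BRWD1 peaks were remote, and the nearest one scored 10 or more was a median of 1355480 bp away, against 1348920 bp for H3S10pK14Ac peaks with neither.

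**Figure D4:**
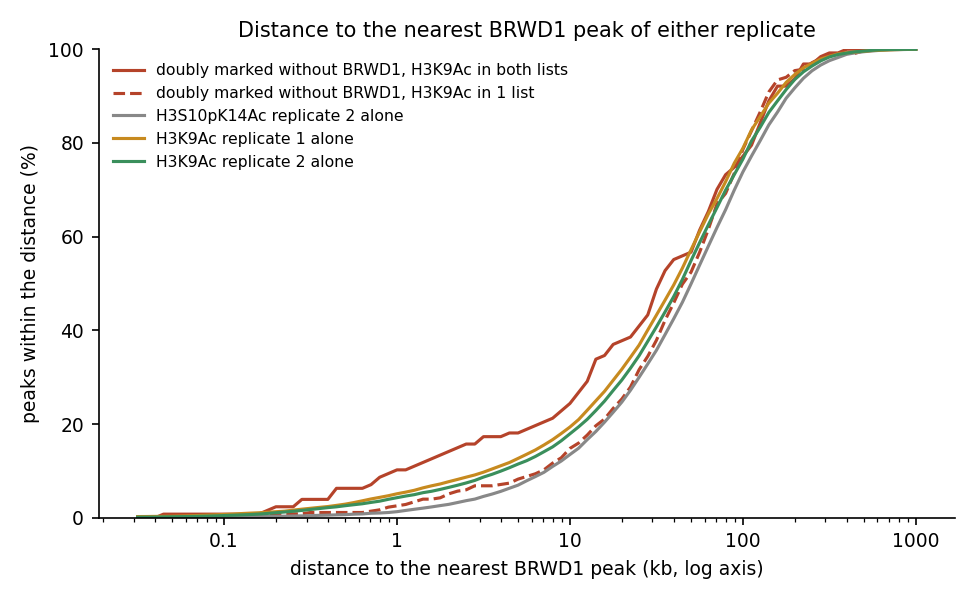
Cumulative percentage of peaks (vertical axis) within a given distance of the nearest BRWD1 peak of either replicate (horizontal axis, kb, logarithmic), for doubly marked sites without BRWD1 with H3K9Ac in both lists (solid red) or in 1 list (dashed red), and for peaks of a single mark. At 10 kb the solid red line stands at 24.4% and the dashed one at 14.8%, while H3S10pK14Ac alone stands at 13.5%, and at 100 kb all lines lie between 73.8 and 78.9%.

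In 9 of the 22 sites within 1 kb, a BRWD1 peak lay elsewhere under the same H3K9Ac peak, at 41 to 641 bp (median 252 bp). One of these was at Igk. In the Igk window, taken as chromosome 6 from 67 to 71 Mb, 7 sites were doubly marked and 1 lacked BRWD1. It spanned 70674951 to 70675098 (148 bp, H3S10pK14Ac score 8.44, rank 456 of 10637) and sat inside both the widest H3K9Ac peak of the first library (score 676.0) and a 4370 bp peak of the second (score 75.05). BRWD1 peaks flanked it on either side, 259 bp away in the second list (score 7.46) and 636 bp away in the first (score 214.6). A pair of H3S10pK14Ac peaks with the high scores of 70.6 and 63.3 lay within 3 kb of it and carried BRWD1. The site therefore filled a gap between BRWD1 peaks in a single acetylated domain.

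**Figure D5:**
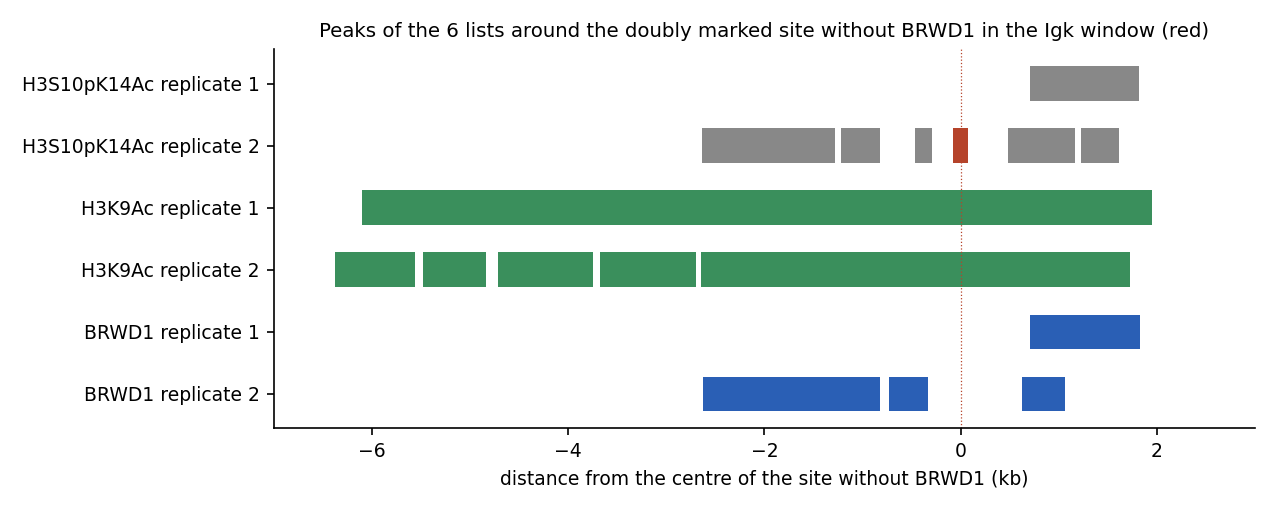
Peaks of the 6 lists (rows) within a few kilobases of the doubly marked site without BRWD1 in the Igk window, drawn to scale as distance in kb from the centre of that site (red); grey bars are other H3S10pK14Ac peaks, green H3K9Ac and blue BRWD1. The red peak of 148 bp lies inside 8054 bp and 4370 bp H3K9Ac peaks, with a BRWD1 replicate 2 peak on either side.

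The window of the heavy chain locus Igh, on chromosome 12, had 4 doubly marked sites, of which 2 lacked BRWD1. They spanned 114094315 to 114094526 and 114468045 to 114468268, each scored 5.91, and had H3K9Ac in the second list alone with scores of 5.42 and 9.26. BRWD1 was 11907 and 53773 bp away. Both H3S10pK14Ac scores equalled the median of all sites without BRWD1, and the second H3K9Ac score lay above the third quartile of its list (8.33).

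The highest-scored site without BRWD1 lay on chromosome 6 at 142816660 to 142817088, with an H3S10pK14Ac score of 15.4 (rank 54), and was followed by a 534 bp peak on chromosome 18 with a score of 13.8. Next came chromosome 17 at 75842218 to 75842476 (12.5), chromosome 10 at 118389290 to 118389624 (11.9), chromosome 2 at 148232634 to 148232885 (11.7), chromosome 3 at 103248408 to 103248631 (11.3), chromosome 8 at 122357651 to 122357873 (11.2) and chromosome 9 at 114687683 to 114687924 (10.6). For the last places of the 10, 3 sites were tied at a score of 10.4. Those on chromosome 3 at 54450954 to 54451129 and chromosome 5 at 147493381 to 147493686 were taken. Of these 10, 9 had H3K9Ac in the second list alone, with H3K9Ac scores from 5.32 to 17.4. The site on chromosome 5 was the exception, with 29.9 and 10.95. For comparison, the 5 highest-scored sites with BRWD1 scored 58.2 to 70.6 and had H3K9Ac in both lists. A pair of them lay in the Igk window, under the same H3K9Ac peak of each library. No list of artefact-prone regions and no input library was applied to the peaks here.

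The sites with the strongest H3K9Ac ran over nearly the whole range of H3S10pK14Ac percentiles. The 5 sites with the best mean percentile of H3K9Ac score over both lists were the Igk site and those at chromosome 5, 114282344 to 114282527, chromosome 19, 41458604 to 41458751, chromosome 17, 7031793 to 7031990, and chromosome 19, 32787178 to 32787380. Their H3K9Ac scores outside Igk were 29.3 to 67.4 in the first list and 25.4 to 42.65 in the second, whereas their H3S10pK14Ac scores were 5.32, 6.18, 10.03 and 5.56 (percentiles 8.40, 70.1, 98.0 and 36.2). The sites at 41458604 and 7031793 lay 416 and 760 bp from a BRWD1 peak, and the other pair 122829 and 51279 bp.

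The widest site, 551 bp on chromosome 4 at 40789657 to 40790207, scored 5.35 and was covered by H3K9Ac over 21.8% of its length. The second widest was the 534 bp peak on chromosome 18, which was also the second highest in score. The others were 453 bp on chromosome 2 at 6410145 to 6410597 (6.91), 452 bp on chromosome 13 at 110873842 to 110874293 (6.94) and 451 bp on chromosome 5 at 142777897 to 142778347 (6.63). All 5 had H3K9Ac in the second list alone.

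The remotest site lay on chromosome 19 at 60332485 to 60332680 (score 7.89), 516315 bp from BRWD1. A pair on chromosome 18 followed at 469822 and 450859 bp, then chromosome 12 at 52478626 to 52478832 at 377096 bp and chromosome 13 at 48880784 to 48880946 (5.86) at 335883 bp. The site on chromosome 12 was well marked, with an H3S10pK14Ac score of 9.13 and H3K9Ac scores of 28.5 and 39.45, in a stretch without any listed BRWD1 peak.

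Sites without BRWD1 were scattered over all 20 chromosomes, from 2 on X to 38 on chromosome 5. They outnumbered sites with BRWD1 on 15 chromosomes. The share of doubly marked sites that lacked BRWD1 ran from 40% on X (5 sites in all) and 46.6% on chromosome 9 to 70.4% on chromosome 5 and 75% on chromosome 19. The X chromosome held 0.418% of the sites without BRWD1 and 2.53% of the H3S10pK14Ac peaks of the list. These were 2 sites, and the 352 sites with BRWD1 were also few there, at 3. Most sites stood alone: the nearest other site of the class was a median of 1007050 bp away, and 327 windows of 1 Mb held 1 site, 57 held 2 and 10 held 3.

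A single window held more, with 7 sites on chromosome 9 between 121 and 122 Mb, spread over 382775 bp. The same window had 12 and 27 H3K9Ac peaks and 3 and 10 BRWD1 peaks in the first and second lists. Their scores ran from 5.35 to 6.99, with a median of 5.86 near that of the class (5.91). The pair at 121222958 to 121223175 and 121224539 to 121224856 shared a first-library H3K9Ac peak of score 79.0 and lay 423 and 641 bp from a BRWD1 peak of score 6.68. Of the 10 windows tied at 3 sites, the naming rule took those on chromosome 5 from 106 to 107 Mb and chromosome 7 from 88 to 89 Mb, by the score of their best site (9.23 in each).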

How the data were processed

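The 6 ChIP-seq peak lists of the series were analysed, 1 per replicate library. The submitters' processing notes name Trimmomatic 0.32, BWA 0.7.5, Picard and MACS2, and build mm9. Settings and the control library: not given in the sources used here. In each list the authors deposited, per peak, coordinates and a score, read from the values (none below 5.01) and the lists' naming as −log10 of a p-value or q-value; which of them is not stated. Peak numbers ran past the lists' lengths, so each is part of a longer one. Read depth is unknown.

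Peaks on chromosomes 1 to 19 and X were used, with a first base of 1. Distances are edge to edge. Intervals of shares are 95% Wilson intervals. Overlap code (Python 3.11.15, NumPy 2.4.6, pandas 2.3.3, SciPy 1.17.1) was tested on simulated data. The sites, regions named and alternatives were chosen with earlier results of these data known. Regions were named by rank of score, width, H3K9Ac score percentile, distance to BRWD1 and sites per 1 Mb window, with all sites in the Igk and Igh windows. Igk and Igh windows were set in whole megabases from general knowledge. The breakdown by number of BRWD1 lists, outlines, and bands outside the 147 regions were added after the values were seen. No mm9 sequence or annotation was used here, so no gene was assigned and no sequence is shown. Alternatives covered overlap, score thresholds, chromosomes, the strongest peaks and each list in turn.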

Additional observations from a re-analysis of the deposited data

How the results depend on the processing

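The count of 478 sites, the share of 57.6%, the score difference of −2.15, the width difference of −36.5 bp, the 17.4% within 10 kb of BRWD1, the 0% with the first H3S10pK14Ac library and the 26.6% with H3K9Ac in both lists were recomputed under 100 combinations of result and setting. Shares were taken as stable within the 95% interval of the value, counts within 1.5 times. Differences were taken as stable within the range between opposite 95% limits of the 2 class medians. These ranges, −3.27 to −1.85 for score and −45 to −27 bp for width, are wider than a 95% interval of the difference. Of the combinations 61 were stable, 38 moved and 1 reversed. H3S10pK14Ac scores of 10 or more left 15 sites, a share of 10.4%, a width difference of −22 bp and 13.3% with both H3K9Ac lists. H3K9Ac scores of 10 or more gave 139 sites, 39.4%, 23.7% within 10 kb and 41.0% with both lists. H3K9Ac in both lists gave 127 sites, 38.3%, differences of −3.36 and −52 bp, and 24.4% within 10 kb. BRWD1 scores of 10 or more gave a share of 71.6%, a score difference of −4.00 and 1.52% within 10 kb. Without the 1% highest-scored peaks the share was 66.3%, the score difference −0.88 and the overlap with the first H3S10pK14Ac library 1.04%. Outside the 147 regions the share was 70.9% and the score difference −0.79. Score differences by width were 0 under 150 bp, −0.79 from 150 up to 200 bp and −4.46 at 300 bp or more. Counting BRWD1 within 1 kb as present left 13.4% within 10 kb, and distances of 1 and 100 kb gave 4.60% and 78.2%. The cause of these moves, including the numbers of peaks that the settings leave, was not tested.

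Leaving out a list gave 2 to 600 sites, a share of 5.41 to 72.3%, score differences of −3.095 to −0.37, width differences of −51 to 30.5 bp, 5.33 to 100% within 10 kb and 27.2 to 50% with both H3K9Ac lists. The extremes 2, 5.41%, −0.37, 30.5 bp, 100% and 50% came with the first H3S10pK14Ac list as the source of sites, which left 2 sites. Without BRWD1 replicate 2 there were 600 sites, 72.3% and 5.33%; without H3K9Ac replicate 2 there were 164 sites, a share of 39.7%, and 23.8% within 10 kb. Settings added after the values were seen left the first-library H3K9Ac peaks wider by 130 to 158 bp, as against 138 bp. Against sites with BRWD1 in a single list, however, they were narrower, at 517 against 580.5 bp. The second-library difference of 2.5 bp became −10.5 bp outside the 147 regions and 152 bp with H3K9Ac in both lists. The lengths shared with H3K9Ac differed by −28.8 and −19.0 percentage points in the first and second library, by −11.7 and −11.5 outside the 147 regions, and by −30.9 and −30.7 with H3K9Ac in both lists. Both settings together left the medians within a few points, as given above, but kept only sites with BRWD1 in a single list as the contrast. The share with both H3K9Ac lists was not computed where the rule needed both or left one out. No paired analysis was possible because the results come from no test.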

Other observations

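H3S10pK14Ac peaks with BRWD1 and without H3K9Ac, which belong to neither class compared above, numbered 228. Their median score of 6.06 and median width of 208 bp were near those of doubly marked sites without BRWD1 (5.91 and 199.5 bp), 13 of them (5.70%) scored 10 or more, and none overlapped the first H3S10pK14Ac library.

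The first H3S10pK14Ac library had 37 peaks with H3K9Ac, and 2 of these lacked BRWD1. They lay on chromosome 6 at 38483059 to 38483129 (score 5.95, H3K9Ac scores 20.3 and 18.96) and chromosome 8 at 19945954 to 19946059 (score 8.35, H3K9Ac score 5.44 in the first list alone), 6034 and 4286 bp from BRWD1. The nearest peak of the second H3S10pK14Ac library was 231720 and 980743 bp away.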
